A study of Homo sapiens with 6 samples.

Results

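CCNA1 and 9 genes for G1 cyclins, cyclin-dependent kinases and their inhibitors were followed in NOMO-1 cells after guide-directed knockout of METTL16. NOMO-1 is a human line derived from an acute myeloid leukaemia, and METTL16 is an enzyme that methylates adenosine in RNA. The genes were taken by name from the expression table and make up 10 of its 15059 genes. They are the A-type cyclin CCNA1, the D-type cyclins CCND2 and CCND3, the E-type cyclins CCNE1 and CCNE2, the kinases CDK2, CDK4 and CDK6, and the kinase inhibitors CDKN1A and CDKN1B. CCNA1 was selected on its higher signal in knockout than in control cells, and CCND2 on its higher signal in rescue than in knockout cells. The values of these 2 genes are therefore described with no test in any comparison, since the comparisons share libraries. The other 8 were named by role, with no measured value in the rule, and were tested. They and the lists of other genes below were still chosen with earlier results of these data known, which limits these tests.

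The cells formed 3 groups with 2 libraries each, and all grew in medium with puromycin. Knockout cells carried a guide RNA against METTL16 and an empty overexpression vector. Rescue cells carried the same guide together with a METTL16 overexpression construct. Control cells carried a non-targeting guide and the empty vector. All 3 groups had thus been infected with lentivirus. The labels do not say whether the cells were single clones or whether replicates were separate cultures, so p-values measure the spread between these libraries, which may be technical.

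Cyclins are subunits that switch on cyclin-dependent kinases, and each cyclin has preferred partners. D-type cyclins pair with CDK4 and CDK6 in G1 and begin the phosphorylation of the retinoblastoma protein, which releases E2F transcription factors; E-type cyclins then pair with CDK2 and carry cells into S phase. CDKN1A (p21) and CDKN1B (p27) bind these complexes and block CDK2. CCNA1 encodes cyclin A1, a CDK2 partner known mainly from male germ cells and also found in myeloid progenitors and myeloid leukaemia, whereas CCNA2 encodes the A-type cyclin of ordinary dividing cells.

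Sequence before a RefSeq transcript start is shown for CCNA1 and CDKN1A, the members with the largest knockout values relative to control, to show what these start regions hold. In both genes that start lies inside the span that GENCODE release 29 gives the gene, which begins farther upstream at another transcript. The sequence comes from RefSeq promoter windows on GRCh38.p14, which gave entries for 7 of the 10 members, and it is limited to the longest run in which that annotation has no exon. For CCNA1 the run is chr13:36431777-36431902 on the plus strand, 178 to 53 bases before that start, and for CDKN1A it is chr6:36678560-36678657 on the plus strand, 154 to 57 bases before that start. Capitals mark matches to GGGCGG, the GC box.
CCNA1: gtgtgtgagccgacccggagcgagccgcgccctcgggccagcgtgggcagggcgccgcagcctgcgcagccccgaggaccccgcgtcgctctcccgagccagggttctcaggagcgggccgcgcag
CDKN1A: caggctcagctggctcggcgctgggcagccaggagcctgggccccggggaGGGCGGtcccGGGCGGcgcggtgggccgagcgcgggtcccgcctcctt

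Motifs were searched on both strands of the 250 bases before each start, namely the GC box GGGCGG, the CCAAT box, the TATA box in the form TATAAA, the cyclic AMP response element TGACGTCA, and the E2F site in the forms TTTGGCGC and TTTCCCGC and also TTTCGCGC and TTTGCCGC. The CCNA1 window had 0 matches to any of them and a GC content of 72.8%. The CDKN1A window had 4 GC boxes, of which the pair nearest the start overlaps by 1 base, and a GC content of 76.4%, and the CDKN1B window had 1 GC box and 2 CCAAT matches at 64.4%. Of 35116 windows of the same length, 42.6% held a GC box, 32.0% a CCAAT box, 10.7% a TATA box, 2.79% an E2F site and 1.65% the response element, and the median GC content was 58.0%. The CCNE1 window had 7 GC boxes at 81.2%. These counts cover whole windows, of which GENCODE release 29 marks 124 bases as exon for CCNA1, 152 for CDKN1A and 244 for CDKN1B. Much of the searched sequence is thus annotated as transcribed. A match is a description of the letters alone.

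Values in the deposited table are RSEM abundances, 1 for each gene in each library, and are named signal in what follows. They are scaled by transcript length, so levels of different genes can be set side by side. They summed to between 597160 and 681928 per library. The labelled guide target was lowest in knockout: METTL16 had 6.05 and 5.83 in knockout, 12.3 and 12.1 in rescue, and 9.89 and 9.63 in control libraries. Of 9 myeloid and monocytic markers, 7 had rows, and their summed signal was 309 to 311 in knockout, 251 to 256 in rescue and 200.3 to 218 in control libraries. CD14 and MPO were not analysed here. Erythroid, lymphoid and epithelial markers had 5 rows among 18 genes and summed to at most 2.85 for any list in any library. Control replicate 2 ran low across genes: its median log2 deviation was -0.10, against 0.0024 to 0.040 in the other libraries. Bulk RNA cannot tell fewer cells of a kind from less RNA per cell.

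CCNA1 (ENSG00000133101, chromosome 13, 36431520 to 36442882, plus strand, GRCh38) had the widest spread of the members between groups. Its signal was 27.8 and 28.0 in the knockout libraries, 11.0 and 11.9 in the rescue libraries, and 8.76 and 8.43 in the control libraries. No group overlapped another, and the knockout libraries stood far above the other 4. Knockout cells held 3.25 times the control mean, a difference of 1.59 in log2(signal + 1). Rescue cells held 0.411 of the knockout mean, a difference of -1.21. Rescue cells still lay at 1.33 times the control mean, and 14.8% of the knockout excess over control was present in rescue. With 0.1 added in place of 1, the knockout difference was 1.69. The myeloid marker sum was also highest in knockout and intermediate in rescue, and its part in the CCNA1 difference was not tested. Among these markers, LYZ and CD68 had the largest differences in signal between knockout and control. LYZ averaged 84.5 in knockout, 56.4 in rescue and 31.0 in control cells, and CD68 averaged 63.0, 36.5 and 31.8. In the same order of groups, SPI1 (50.6, 43.1 and 38.0), CD33 (35.6, 32.7 and 30.1) and CSF1R (2.75, 1.01 and 0.849) were also highest in knockout. CD4 averaged 68.3 in knockout, 78.6 in rescue and 72.2 in control cells, and ITGAM averaged 4.81 in knockout, 5.19 in rescue and 5.22 in control cells, so both were lowest in knockout.

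CCNA1 lay below its relative CCNA2 in every library, and its share of their joint signal differed between groups. That share carries the selection of CCNA1 on its knockout signal. CCNA2 had 44.3 and 43.8 in knockout, 41.5 and 45.5 in rescue and 45.6 and 40.0 in control libraries, and all 3 groups overlapped. CCNA1 therefore made up 38.6% and 39.0% of the joint A-type cyclin signal in knockout, 21.0% and 20.7% in rescue, and 16.1% and 17.4% in control libraries. No other gene of the table lay within 100000 bases of CCNA1, a window looked up after the values were seen.

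**Figure D1:**
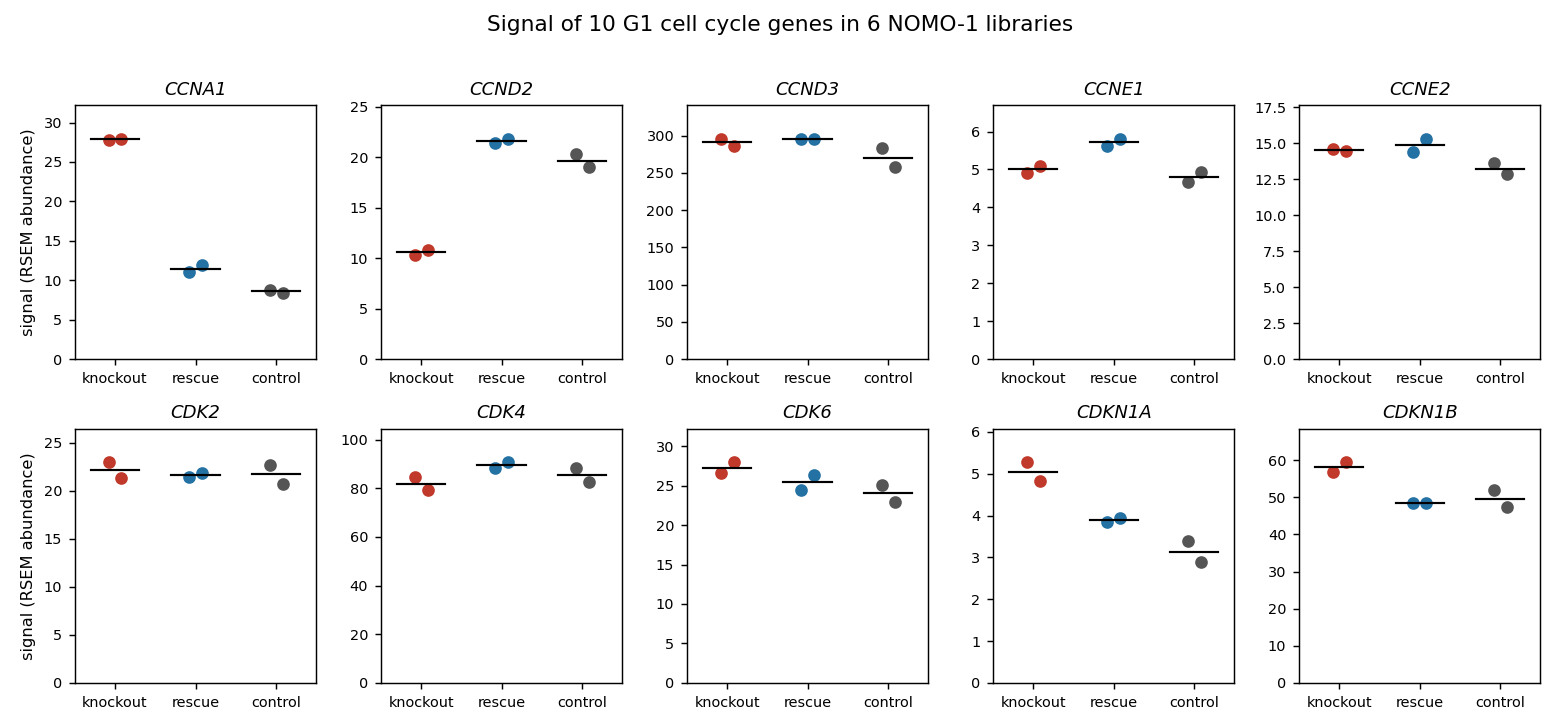
Signal (RSEM abundance, vertical axis from 0, scale set per gene) of each of the 10 genes in the 2 libraries of knockout, rescue and control cells; each point is 1 library and each line the group mean. CCNA1 is high and CCND2 low in knockout alone, and CDKN1A, CDKN1B and CDK6 are highest there. In the other members knockout overlaps rescue or control.

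CCND2 (ENSG00000118971, chromosome 12, 4273772 to 4305350, plus strand), a D-type cyclin, ran the other way. Its signal was 10.3 and 10.9 in knockout, 21.4 and 21.9 in rescue, and 20.3 and 19.0 in control libraries. Knockout libraries were lowest with no overlap, and rescue libraries lay just above the control ones. Knockout cells held 0.538 of the control mean (log2 difference -0.83), and rescue cells held 2.05 times the knockout mean (0.97). The 1 other gene matched by symbol within 100000 bases was TIGAR, which encodes a fructose bisphosphatase. TIGAR averaged 2.94 in knockout, 2.67 in rescue and 2.33 in control cells. Its difference between knockout and control did not pass the test (log2 0.24, limma adjusted p = 0.0762).

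CCND3 (chromosome 6, 41934933 to 42050357, minus strand) was the more abundant D-type cyclin and the most abundant member in every library. It had 296 and 286 in knockout, 295 and 296 in rescue, and 284 and 257 in control libraries. The knockout and control groups did not overlap, but the log2 difference of 0.11 (SE 0.056) did not pass the test across all genes (limma, adjusted p = 0.140), and neither did rescue against knockout (0.021, adjusted p = 0.801). The call depended on scaling and on 1 library: CCND3 passed as higher in knockout after quantile normalization (0.087, adjusted p = 0.0200) and with control replicate 1 left out (0.18, 0.0151). CCND2 contributed 3.36% and 3.65% of the joint CCND2 and CCND3 signal in knockout, 6.77% and 6.89% in rescue, and 6.68% and 6.88% in control libraries. The joint signal itself was 306 and 297 in knockout, 317 and 318 in rescue, and 304 and 276 in control libraries, where knockout and control overlap. CCND1, the remaining D-type cyclin, was at 0.403 to 0.599 over the 6 libraries and was left out of the test by the filter on low values.

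By estimate, the E-type cyclins differed less from control in knockout cells than in rescue cells, and none of these differences passed the test. CCNE1 (chromosome 19, 29811898 to 29824308, plus strand) had 4.91 and 5.09 in knockout, 5.62 and 5.81 in rescue, and 4.67 and 4.94 in control libraries, so that knockout overlapped control and rescue lay above both. None of its differences passed the test: 0.049 in knockout against control (adjusted p = 0.704, 95% interval -0.15 to 0.25), 0.16 in rescue against knockout (adjusted p = 0.196) and 0.21 in rescue against control (adjusted p = 0.404), all by limma. CCNE2 (chromosome 8, 94879770 to 94896678, minus strand) had 14.6 and 14.4 in knockout, 14.4 and 15.3 in rescue, and 13.6 and 12.8 in control libraries. Control was lowest, but the log2 difference of 0.13 between knockout and control did not pass (limma, adjusted p = 0.206, 95% interval -0.037 to 0.29). CCNE2 made up between 71.9% and 74.8% of the joint E-type signal in all 6 libraries.

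Of the 3 kinases, none passed the test in any comparison. Over all genes, 39.7% passed in knockout against control, 31.4% in rescue against knockout and 0.283% in rescue against control. CDK2 (chromosome 12, 55966769 to 55972784, plus strand), the partner of cyclins E and A, had 23.0 and 21.3 in knockout, 21.5 and 21.8 in rescue, and 22.7 and 20.7 in control libraries. All groups overlapped, and the log2 difference of 0.028 between knockout and control had a 95% interval of -0.13 to 0.18 (limma, adjusted p = 0.787). CDK4 (chromosome 12, 57747727 to 57756013, minus strand) had 84.5 and 79.3 in knockout, 88.2 and 90.7 in rescue, and 88.3 and 82.6 in control libraries. Knockout overlapped control, as did rescue, and knockout lay below rescue. The log2 difference was -0.061 in knockout against control (SE 0.059, adjusted p = 0.439) and 0.13 in rescue against knockout (SE 0.059, adjusted p = 0.118), again by limma.

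The CDK4 result turned on scaling. After quantile normalization it passed as lower in knockout than in control (-0.10, limma adjusted p = 0.0281), and so it did after median centring (-0.13, adjusted p = 0.0245), under which it was also higher in rescue than in knockout (0.13, adjusted p = 0.0262). CDK6 (chromosome 7, 92604921 to 92836594, minus strand), the other partner of D-type cyclins, had 26.6 and 27.9 in knockout, 24.5 and 26.4 in rescue, and 25.1 and 22.9 in control libraries. Knockout was highest without overlap, and the log2 difference from control of 0.18 (SE 0.072) missed the threshold (limma, adjusted p = 0.0613). It passed with a mean signal of at least 5 as the filter (adjusted p = 0.0404), with the replicate block (0.0452) and without control replicate 1 (0.24, adjusted p = 0.0262). Among neighbours matched by symbol, TSPAN31 overlaps CDK4 on the opposite strand, and INTS8 and NDUFAF6 overlap CCNE2 on the opposite strand. Whether their reads enter the signal of CDK4 or CCNE2 was not tested. The kit was stranded, and the use of strand in counting is not given in the sources used here.

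Both inhibitors rose in knockout against control and fell in rescue against knockout. CDKN1A (ENSG00000124762, chromosome 6, 36676460 to 36687339, plus strand), which encodes p21, had 5.27 and 4.83 in knockout, 3.86 and 3.94 in rescue, and 3.39 and 2.89 in control libraries. The groups did not overlap, and rescue lay between knockout and control. CDKN1A rose to 1.61 times the control mean (log2 0.55, SE 0.10, limma adjusted p = 0.00081), and passed under each of the 13 alternatives that could be fitted. It fell in rescue against knockout by 0.30 on the log2 scale (SE 0.10, limma adjusted p = 0.0348), but the adjusted p was 0.248 without knockout replicate 1 and 0.0721 without knockout replicate 2, and leaving out rescue replicate 1 gave 0.158 and rescue replicate 2 gave 0.122. In rescue cells 39.7% of the knockout excess over control was present, and rescue against control did not pass (0.25, adjusted p = 0.384).

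CDKN1A was the least abundant member in rescue and control cells, and the spacing of low values put its signal at about 148 to 245 reads per library for a transcript of 2000 nt. CDKN1B (ENSG00000111276, chromosome 12, 12715058 to 12722371, plus strand), which encodes p27, had 56.8 and 59.4 in knockout, 48.5 and 48.6 in rescue, and 51.9 and 47.3 in control libraries. Knockout lay above the rest, and rescue fell within the control range. CDKN1B rose to 1.17 times the control mean (log2 0.22, SE 0.062, limma adjusted p = 0.0111), a call lost without knockout replicate 2 (0.19, adjusted p = 0.102). It fell by 0.25 in rescue against knockout (SE 0.062, limma adjusted p = 0.00708), which was lost without knockout replicate 2 (adjusted p = 0.0679), rescue replicate 1 (0.0528) or rescue replicate 2 (0.0503). CDKN1A made up 8.50% and 7.52% of the joint inhibitor signal in knockout, 7.37% and 7.50% in rescue, and 6.13% and 5.76% in control libraries.

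**Figure D2:**
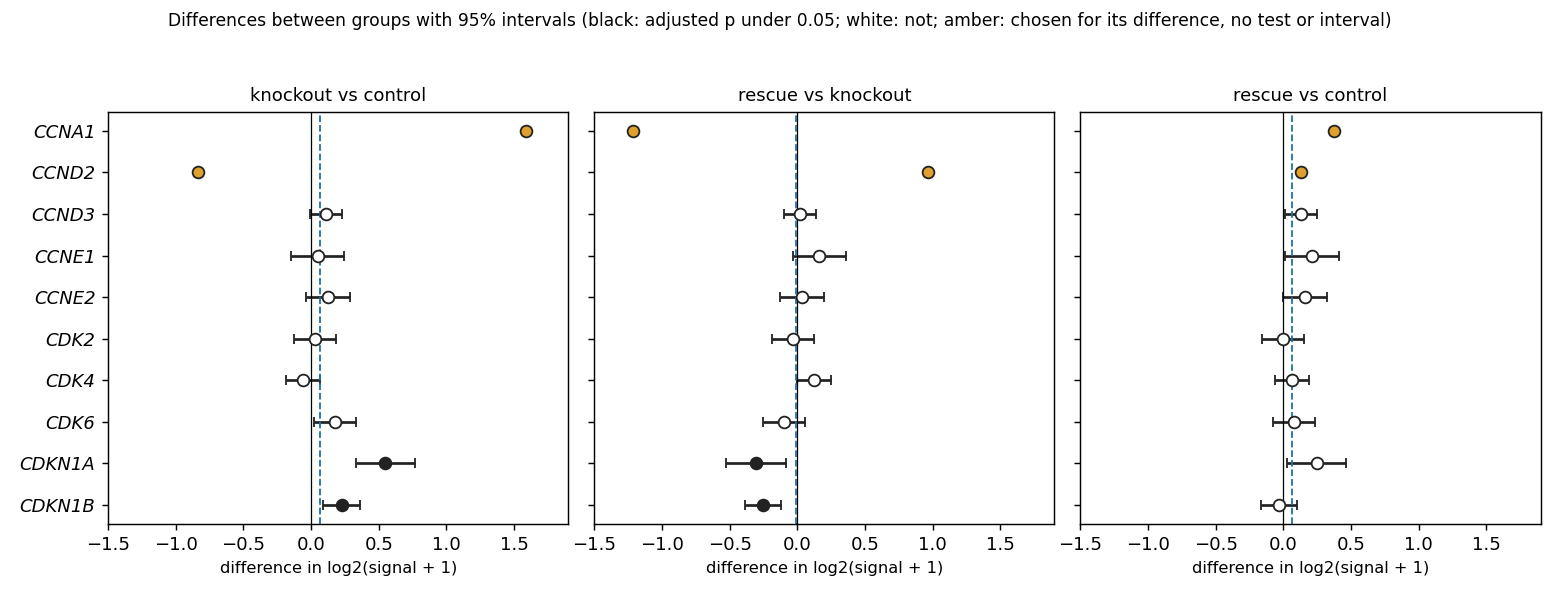
Difference in log2(signal + 1) of each gene in knockout against control (left), rescue against knockout (middle) and rescue against control (right), with bars for the 95% interval from limma on the 8 tested genes and a dashed line for the median of all 12734 genes. CCNA1 (1.59 and -1.21) and CCND2 (-0.83 and 0.97), drawn without intervals, were selected for these differences, so their distance from the others is set by that choice; CDKN1A and CDKN1B pass in the first 2 panels, and no tested gene passes in the third.

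Counted together, 2 of the 8 tested members rose and 0 fell in knockout against control, where 26.2% of all 12734 tested genes rose and 13.5% fell (39.7% in either direction). In rescue against knockout 0 rose and 2 fell, where 15.6% of all genes rose and 15.9% fell (31.4% in either direction). In rescue against control none of the 8 passed, where 0.283% of all genes did by limma (0.228% higher and 0.055% lower, 29 and 7 genes, but 8 and 0 after median centring and 19 and 14 after quantile normalization). By unadjusted p under 0.05, 3 of the 8 tested members passed in that comparison, CCND3, CCNE1 and CDKN1A, as did 1463 of all genes. The count of risen members in knockout against control was near the background for rises, and in both comparisons too few members were tested to read a share from the count. The median log2 difference over the 8 was 0.12 for knockout against control, beside 0.067 over all genes. For rescue against knockout it was -0.0045, beside -0.012 over all genes. Among all calls in knockout against control 65.9% were rises, 49.0% after median centring and 49.7% after quantile normalization. Both comparisons use the same knockout libraries, so the opposite signs of a gene in them are not separate observations.

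The order of the members by level was the same in rescue and control cells and differed in knockout cells. CCNA1 and CCND2 were selected on differences from or in knockout cells, so their change of place follows from that choice. The other members kept their order in every group, apart from CDKN1A and CCNE1, which overlapped in knockout cells. In knockout cells the mean signal ran, from high to low, CCND3, CDK4, CDKN1B, CCNA1, CDK6, CDK2, CCNE2, CCND2, CDKN1A and CCNE1. Here CCNA1 and CDK6 overlapped, as did CDKN1A and CCNE1. In rescue cells the order was CCND3, CDK4, CDKN1B, CDK6, CDK2, CCND2, CCNE2, CCNA1, CCNE1 and CDKN1A, with CDK2 and CCND2 overlapping. Control cells had this same order, and there no neighbours overlapped. CCNA1 was thus eighth in rescue and control cells and the fourth in knockout cells, and CCND2 was the sixth in rescue and control cells and the eighth in knockout cells.

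Other genes of the cell cycle, 47 in 5 lists that include mitotic genes such as CCNB1, served as the setting, and 44 of them were tested. In knockout against control 5 rose and 4 fell, where 26.2% of all genes rose and 13.5% fell, so calls were fewer than the 39.7% of all genes in either direction. Their median log2 difference was -0.0032 beside 0.067 over all genes. In rescue against knockout 9 rose and 3 fell, where 15.6% of all genes rose and 15.9% fell, with a median of 0.035 beside -0.012. In rescue against control 0 of 44 passed by limma, where 0.283% of all genes did.

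Of 12 tested pocket proteins and E2F factors, 1 rose and 2 fell in knockout, beside 26.2% and 13.5% of all genes. E2F8, a repressor of E2F target genes, had 24.2 and 24.7 in knockout against 18.7 and 16.4 in control libraries (log2 0.46, limma adjusted p = 0.000368) and passed under all 14 alternatives. E2F5, which works with the pocket proteins as a repressor, had 2.22 and 1.88 in knockout against 3.29 and 2.76 in control libraries (-0.40, adjusted p = 0.0112), which did not hold without control replicate 1 (0.0732) or knockout replicate 2 (0.104). TFDP1, the partner subunit through which E2F factors bind DNA, was at -0.19 (adjusted p = 0.00979), which was lost without a variance trend (0.0614) and without knockout replicate 1 (0.0821). The retinoblastoma gene RB1 did not pass, with 53.3 and 58.6 in knockout against 58.2 and 54.0 in control libraries (limma, adjusted p = 0.964).

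In rescue against knockout 5 of these 12 rose and 1 fell, beside 15.6% and 15.9% of all genes. TFDP1 rose by 0.29 (limma adjusted p = 0.00087) under all 14 alternatives, and E2F5 rose by 0.46 (adjusted p = 0.00632), with 0.0580 without knockout replicate 2. E2F8 fell by 0.29 (adjusted p = 0.0102), a call lost without knockout replicate 2 (0.0533) and without rescue replicate 1 (0.111). The others that rose were E2F6 (0.25), TFDP2 (0.29) and E2F3 (0.24), named once the count was known. Leaving out any 1 of the 4 libraries compared ended each of these last 3 calls, with adjusted p from 0.0752 to 0.208 for E2F6, 0.0914 to 0.132 for TFDP2 and 0.0896 to 0.273 for E2F3. The E2F3 call was also lost with no filter on low values (0.0571) and without a variance trend (0.0641). In knockout against control these 3 did not pass but did, as lower, after quantile normalization and median centring, and E2F3 and TFDP2 also without control replicate 2.

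Among the 12 other cyclins and kinases tested, 1 rose and 1 fell in knockout, beside 26.2% and 13.5% of all genes. The one that fell, CCNC, encodes cyclin C, the partner of CDK8 in the kinase module of Mediator. It had 12.9 and 13.7 in knockout, 19.3 and 22.7 in rescue, and 22.3 and 21.1 in control libraries. Knockout libraries were lowest without overlap, at -0.66 against control (SE 0.083, limma adjusted p = 3.75e-05), and rescue rose above knockout by 0.62 (adjusted p = 0.000125), both under all 14 alternatives. CCNB1, the mitotic cyclin, rose to 66.8 and 64.9 in knockout against 56.0 and 50.7 in control libraries (0.30, limma adjusted p = 0.00175). It fell in rescue against knockout (-0.19, adjusted p = 0.0332), a call lost without a variance trend (0.0992) and without any 1 of the 4 libraries compared (0.0839 to 0.193). CCNH, a subunit of the CDK-activating kinase, was at -0.098 in knockout (adjusted p = 0.242) and passed there after quantile normalization (-0.16, adjusted p = 0.0149) and median centring (-0.17, adjusted p = 0.0178). It rose by 0.23 in rescue against knockout (adjusted p = 0.0159), with adjusted p from 0.101 to 0.179 without any 1 of the 4 libraries. The 10 genes of this list that did not pass in knockout included CDK1 and CCNA2.

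The 5 tested inhibitors of other families included 1 that rose in knockout, beside 26.2% of all genes. This was CDKN2C (p18), a blocker of CDK4 and CDK6. It had 16.6 and 15.2 in knockout against 13.6 and 12.9 in control libraries (log2 0.24, limma adjusted p = 0.0284), and the call was lost without control replicate 2 (0.0957) and without knockout replicate 1 (0.280). CDKN2B (p15) was at 0.24 (adjusted p = 0.107) and passed without control replicate 1 (adjusted p = 0.0487). CDKN3, a phosphatase that acts on CDK2, was at -0.12 (adjusted p = 0.131), and it passed as lower after quantile normalization (-0.18, 0.00304) and median centring (-0.19, 0.00623). None of the 5 passed in rescue against knockout, beside 31.4% of all genes in either direction, and CDKN2C was at -0.15 (limma adjusted p = 0.162).

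**Figure D3:**
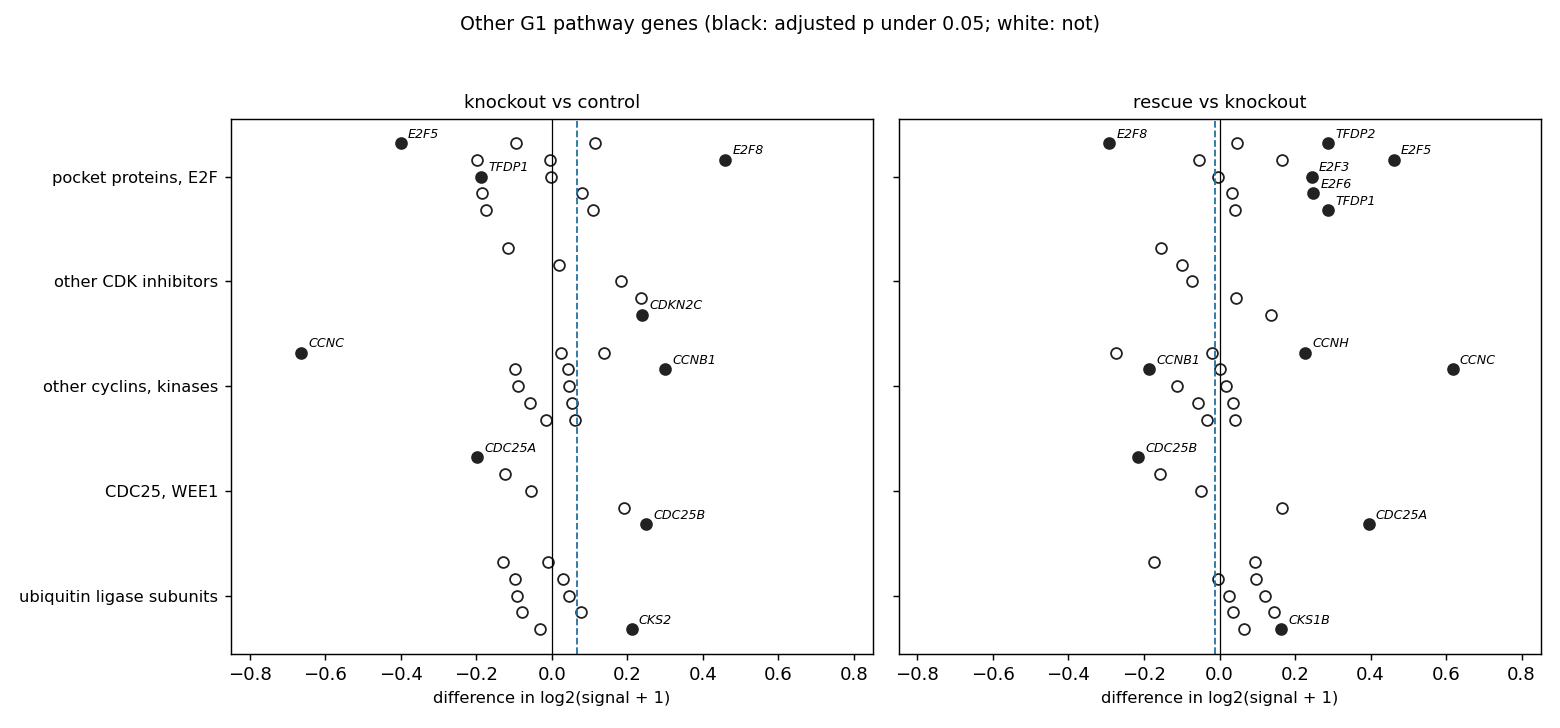
Difference in log2(signal + 1) for 44 other cell cycle genes, some of them mitotic, in knockout against control (left) and rescue against knockout (right), by list. Black points passed an adjusted p of 0.05 and carry their names, white points did not, and the dashed line is the median of all genes. CCNC is the lowest point on the left at -0.66 and the highest on the right at 0.62.

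The CDC25 phosphatases, which remove inhibitory phosphates from cyclin-dependent kinases, moved in both directions. Of 5 genes in this list 1 rose and 1 fell in knockout, beside 26.2% and 13.5% of all genes. CDC25B rose in knockout, with 25.4 and 24.4 against 21.4 and 20.2 in control libraries (log2 0.25, limma adjusted p = 0.00991), a call lost without knockout replicate 1 (0.109). CDC25A, the G1 to S form, was lower, with 16.7 and 16.2 in knockout against 19.5 and 18.6 in control libraries (-0.20, adjusted p = 0.0349). That call was lost without a variance trend (0.0541), with only the 2 groups in the fit (0.0922), and without either knockout replicate (0.132 and 0.222) or either rescue replicate (0.0899 and 0.0897). In rescue against knockout CDC25A rose by 0.39 (limma adjusted p = 0.00084) under all 14 alternatives, at 22.0 and 21.9 in rescue against 16.7 and 16.2 in knockout libraries. CDC25B fell by 0.22 (adjusted p = 0.0270), which was lost without a variance trend (0.0536) and without any 1 of the 4 libraries compared (0.0948 to 0.229). PKMYT1, a kinase that places such phosphates, was at 0.19 in knockout (adjusted p = 0.123) and passed without control replicate 1 (0.32, adjusted p = 0.0237).

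In the list for ubiquitin ligases that turn over G1 cyclins and inhibitors, 10 genes were tested. None fell in knockout and 1 rose, beside 13.5% and 26.2% of all genes. This was CKS2, a small protein that binds cyclin-dependent kinases, with 86.2 and 91.7 in knockout against 82.3 and 71.3 in control libraries (log2 0.21, limma adjusted p = 0.0339), and the call was lost after quantile normalization (0.0628) and median centring (0.0630), without a variance trend (0.105), without control replicate 2 (0.282) and without knockout replicate 2 (0.130). CKS1B, the cofactor through which SKP2 recognises p27, was at -0.13 in knockout (adjusted p = 0.0690), and passed as lower after quantile normalization (-0.18, 0.0289), after median centring (-0.20, 0.0232) and with control replicate 1 left out (-0.14, 0.0312). It rose by 0.16 in rescue against knockout (adjusted p = 0.0323), which was lost after quantile normalization (0.0907), without a variance trend (0.111) and without any 1 of the 4 libraries compared (0.124 to 0.283). FBXO4, an F-box protein, was at -0.098 in knockout (adjusted p = 0.382) and passed as lower after quantile normalization (-0.16, 0.0427) and median centring (-0.17, 0.0394). SKP2 itself had 25.6 and 25.3 in knockout against 25.0 and 24.2 in control libraries and did not pass (limma, adjusted p = 0.597).

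The genes most like CCNA1 and CCND2 were ranked by Pearson's r of log2(signal + 1) over the 6 libraries, among 8819 tested genes with a mean signal of at least 5. The libraries fall into 3 groups of 2, so r mostly follows the group means, and it is given as a description. Those closest to CCNA1 were SLPI, an inhibitor of neutrophil serine proteases, FAM46C, a poly(A) polymerase, SCPEP1, a carboxypeptidase, TP53INP2, an autophagy factor, and CAT, which encodes catalase, with r from 0.9989 to 0.9998. SLPI averaged 20.5 in knockout, 5.11 in rescue and 3.29 in control cells, and CAT averaged 132 in knockout, 86.2 in rescue and 74.7 in control cells. Like CCNA1, all 5 had rescue means between those of knockout and control, which follows largely from ranking them by likeness to CCNA1. Those closest to CCND2 were NOLC1, a nucleolar chaperone, REXO2, a ribonuclease, TTC39C, PRMT3, a protein arginine methyltransferase, and CCDC25, with r from 0.9980 to 0.9997. NOLC1 averaged 64.6 in knockout, 106 in rescue and 98.2 in control cells. Rescue means lay above the control means in all 5, as they did for CCND2, and this too follows largely from the ranking.

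**Figure D4:**
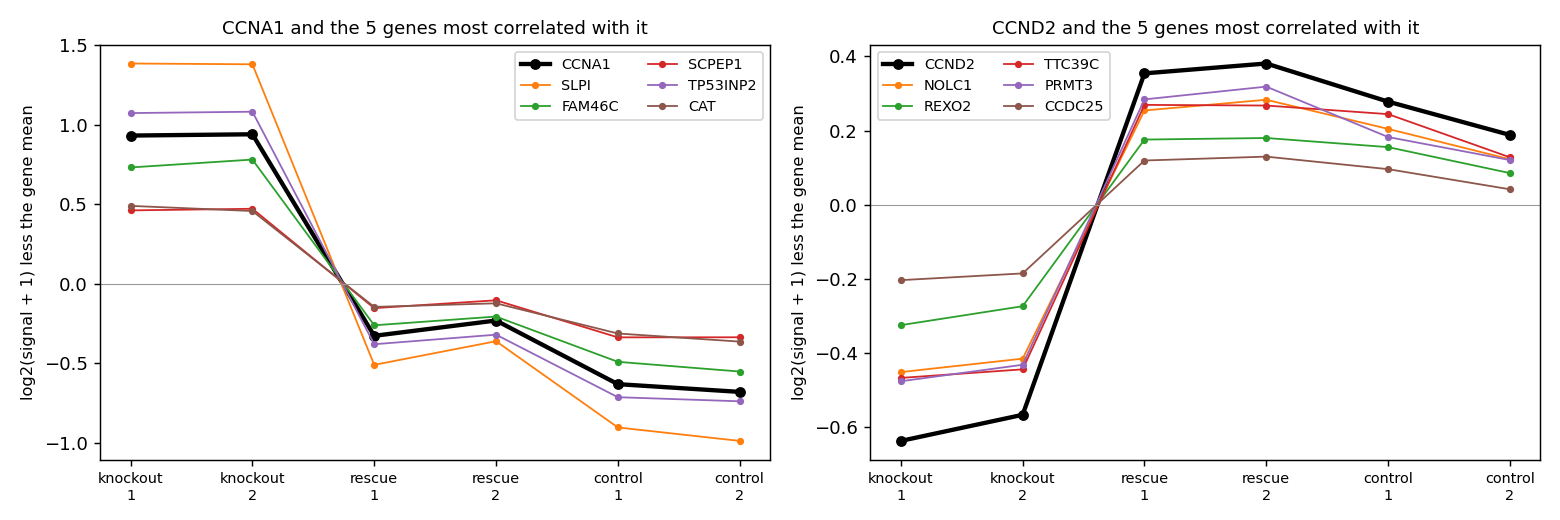
Log2(signal + 1) less the gene's mean over the 6 libraries (vertical axis) for CCNA1 (left, black) and CCND2 (right, black) and the 5 genes most correlated with each, by library; lines join the values of 1 gene. SLPI and TP53INP2 span a wider range than CCNA1, and CCND2 spans a wider range than the 5 genes beside it.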

How the data were processed

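Total RNA of 6 NOMO-1 libraries was depleted of ribosomal RNA and made into stranded libraries for a HiSeq 2500, per the labels' protocols. Reads were processed with STAR and RSEM on GRCh38, per the submitters' processing notes; versions and annotation are not given in the sources used here. The authors deposited 1 signal (RSEM abundance, TPM or FPKM not stated) per gene and library, with no value of 0, and 0 columns lacked a sample. A gene was tested where 2 or more libraries reached a signal of 1 (12734 genes; 2325 left out), and all 10 members passed. limma 3.58.1 in R 4.3.3, with a variance trend and the 3 groups fitted together (residual degrees of freedom 3, prior 11), was run on log2(signal + 1), which understates changes of low genes. Tests are two-sided, with Benjamini-Hochberg adjustment over all genes tested and a threshold of 0.05. The script was tested on simulated data.

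Depth is not stated in the sources used here. Over annotated transcripts of up to 400 nt, 70.8% to 84.0% of values under 4.5 reads lay within 0.15 of a whole number of reads at the best step, which was chosen on these same values; a signal of 1 over 2000 nt then stands for 46.1 to 51.2 reads.

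Named genes were the 10 members, METTL16, up to 3 genes per list with the smallest p in knockout against control and up to 2 in rescue against knockout, and the 5 genes most correlated with CCNA1 and with CCND2. E2F3, E2F6, TFDP2, RB1, SKP2, CCNA2, CCND1, CDK1, TIGAR and other neighbours were added after values were seen. Members and lists were chosen with earlier results of these data known. Coordinates and symbols are from GENCODE release 29. Tables and figures were made in Python 3.11.15. There were 14 alternative settings.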

Additional observations from a re-analysis of the deposited data

How the results depend on the processing

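The alternatives were a pseudocount of 0.1, no filter, a mean signal of at least 5, quantile normalization, median centring, no variance trend, only the 2 groups compared, the replicate block, and leaving out each library in turn. The number of genes called in knockout against control was 5056, and 3363 to 5346 with 1 library left out. In rescue against knockout it was 4004, and 2484 to 5030 with 1 library left out. In rescue against control it was 36, and it moved to 23 with no filter, 225 with a mean of at least 5, 8 with median centring, 9 without a trend, 277 with only the 2 groups, 382 with the replicate block, and 8 to 281 with 1 library left out. CDKN1A has a mean under 5 and could not be fitted under that filter.

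The direction of some differences that had not passed turned. In knockout against control CCNE1 was at -0.031 with quantile normalization and -0.020 with median centring. CDK2 was at -0.038 and -0.041 under these, and at -0.035 to 0.091 with 1 library left out. CDKN2A was at -0.040 and -0.050, and at -0.098 to 0.136 with 1 library left out. In rescue against knockout CCND3 was at -0.024 with quantile normalization. With 1 library left out CCND3 ran from -0.0028 to 0.046, CCNE2 from -0.0088 to 0.074 and CDK2 from -0.081 to 0.021. In rescue against control CDK4 was at -0.018 with quantile normalization, and CDK2 ran from -0.065 to 0.061 and CDKN1B from -0.094 to 0.035 with 1 library left out.

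The cause of these shifts was not tested. For libraries with the same replicate number, r of deviations was -0.011, -0.048 and 0.10 for the pairs of groups, across 12734 genes. With 2 libraries per group these values cannot settle whether libraries were paired, and the main fit used no pairing. The replicate block called 5475 genes between knockout and control, 4477 between rescue and knockout, and 382 between rescue and control. The main fit called 5056, 4004 and 36. The 2 libraries of each group limit every comparison.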
